A study of Mus musculus with 4 samples.

Results

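Chromatin at the cytosolic ribosomal protein genes was read from ATAC-seq peak lists of mouse hair follicle stem cells (HFSC), labelled Irx5KO or WT. The members were taken by symbol from the protein-coding genes of mm10: Rpl or Rps followed by a digit, and Rplp0, Rplp1, Rplp2 and Rpsa, without the Rps6k kinases, symbols with -ps and symbols ending in l. This gave 83 of 21887 protein-coding genes on the standard chromosomes. Of these, 77 encode recognised ribosomal proteins, 46 of the large subunit and 31 of the small subunit, counting the P-stalk as large. The other 6 (Rpl7l1, Rpl22l1, Rpl37rt, Rps19bp1, Rps23rg1 and Rps27rt) are paralogues, retrogenes or, for Rps19bp1, a binding partner of Rps19 that carry such a symbol, and they are given apart where they differ.

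Every ribosome needs a full set of these proteins, and their genes are transcribed in all growing cells from short, compact loci. In mammals their promoters seldom hold a classical TATA box, and transcription starts at a C within a run of pyrimidines. The resulting 5′ terminal oligopyrimidine (TOP) tract lets the mTOR pathway control translation of the mRNAs. In mouse skin, mutation of Rps19 or Rps20 darkens the skin through p53, and quiescent HFSC are known for low protein synthesis.

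The 4 samples were 2 labelled Irx5KO and 2 labelled WT, all HFSC that had been sorted to lack Ly-6A/E and to carry CD34 and a marker written CD45f. Irx5 encodes an Iroquois homeodomain transcription factor. The allele, strain, sex and age of the mice and the purity of the sort were not given in the sources used here. The deposited data were 1 peak list per genotype that pools both replicates, so there is no spread between replicates and no test between genotypes was run. Effects of genotype and of how each library was made cannot be told apart. By its title, the study concerns IRX5 in the repair of DNA damage and in stem cell activation.

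The Irx5KO list had 484992 peaks on the standard chromosomes, and the WT list had 498061. The score of a peak is the authors' own value. It is used here only as a percentile within its own list, where 100 is the highest score, and percentiles of lists of different length do not measure a change between them. All 10 HFSC and basal keratin markers (among them Cd34, Lgr5 and Krt15) had a gene-end peak in both lists, against 75.2% of all coding genes. Their median percentile was 39.8 in Irx5KO and 31.5 in WT, below the 61.9 in Irx5KO and 53.0 in WT of all coding genes with such a peak. Of the 5 with an annotated start, 4 had a peak over it in Irx5KO and 3 in WT. Of 10 markers of blood, fibroblasts, melanocytes and endothelium, 3 had a gene-end peak in Irx5KO and 6 in WT. Cd3e and Pecam1 were among those with none in either. The shares of all coding genes with one were 81.3% in Irx5KO and 79.2% in WT. The best-ranked peak of these 10 markers was near Itgam, at percentile 99.8 in Irx5KO and 99.6 in WT. It lay beyond the gene's end, and neither list had a peak within 1000 bp of the Itgam start. Of the 5 markers of these other cells with an annotated start, 0 had it covered in either list. Within 1000 bp of the start, 0 of the 5 had a peak in Irx5KO and 2 in WT. These were Ptprc at percentile 22.8 and Tyr at percentile 62.6. Ly6a, which encodes an antigen the cells were sorted to lack, had a gene-end peak in both lists. Its best one stood at percentile 60.7 in Irx5KO and 67.5 in WT, above the medians of the HFSC and basal keratin markers. The part of such cells in the results below was not tested. The lists do not state how many reads stood behind them.

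Promoter sequence was available from RefSeq (GRCm38.p6, the assembly of mm10) for 63 of the 83 members, 55 with a single annotated start and 8 with several. The other 20 members, among them Rpl7, Rpl8, Rpl17, Rpl23a, Rpl32, Rplp1, Rps20 and Rps29, enter no result that needs a start. Stretches from 60 bases before the annotated start to the 30th base of the transcript are shown for the 4 single-start members with the highest sum of both lists' percentiles for the best peak within 1000 bp of the start, for the 3 members whose start base lay under a peak in Irx5KO only (chosen after their values were seen), and for Rplp0 and Rplp2 of the P-stalk. Capitals mark a run of at least 5 pyrimidines that begins with C within 10 bases of the annotated start.
Rpl37, chr15:5116553-5116642, plus strand: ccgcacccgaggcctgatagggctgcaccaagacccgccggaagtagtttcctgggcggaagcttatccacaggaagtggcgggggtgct
Rps2, chr17:24720003-24720092, plus strand: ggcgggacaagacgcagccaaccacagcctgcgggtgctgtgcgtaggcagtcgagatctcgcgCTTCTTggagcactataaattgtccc
Rpl22l1, chr3:28805448-28805537, plus strand: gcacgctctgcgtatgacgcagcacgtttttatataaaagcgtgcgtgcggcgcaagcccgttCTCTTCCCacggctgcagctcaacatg
Rps23, chr13:90923062-90923151, plus strand: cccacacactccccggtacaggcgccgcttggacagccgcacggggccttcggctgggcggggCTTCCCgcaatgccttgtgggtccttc
Rpl4, chr9:64173327-64173416, plus strand: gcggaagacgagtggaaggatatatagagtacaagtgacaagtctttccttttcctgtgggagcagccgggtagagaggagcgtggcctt
Rpl6, chr5:121204441-121204530, plus strand: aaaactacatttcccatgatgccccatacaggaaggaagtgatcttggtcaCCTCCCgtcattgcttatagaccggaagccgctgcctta
Rps26, chr10:128626477-128626566, minus strand: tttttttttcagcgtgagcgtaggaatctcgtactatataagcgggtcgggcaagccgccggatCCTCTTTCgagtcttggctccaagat
Rplp0, chr5:115559407-115559496, plus strand: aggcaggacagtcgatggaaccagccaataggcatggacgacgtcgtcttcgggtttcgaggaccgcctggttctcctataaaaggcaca
Rplp2, chr7:141447591-141447680, plus strand: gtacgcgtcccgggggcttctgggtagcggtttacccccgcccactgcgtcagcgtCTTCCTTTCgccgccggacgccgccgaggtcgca
A run that begins within this reach was found in 6 of these 9, and not in the Rpl37, Rpl4 and Rplp0 stretches. Outside the reach, the Rpl4 stretch holds a longer run that begins with C before the start. The Rplp0 stretch holds a run that begins with C after the start, also outside the reach. The 4 members with the highest sum, those left uncovered in WT and those of the P-stalk each include some with and some without a run within the reach. Rps2 is among the 4 through a peak inside the gene and not over its start.

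Over the 55 single-start members, C followed by at least 4 pyrimidines at the start base itself was found in 12 promoters (21.8%), against 2.18% of 14731 single-start coding genes. Within 10 bases of the start, such a run was found in 29 (52.7%), against 31.0%. The ETS motif CCGGAAG, on either strand of the 300-base window from 250 bases before to 50 after the start, was in 21 (38.2%), against 11.8%. ETS motifs are bound by factors such as GABP. The SP1 motif GGGCGG was in 32 (58.2%), against 45.3%, and the CCAAT box in 17 (30.9%), against 39.6%. The cyclic AMP response element TGACGTCA was in 5 (9.09%), against 2.29%, and the YY1 motif AAGATGGC in 4 (7.27%), against 3.35%. The TATA box TATAAA, searched 20 to 40 bases before the start on the gene's strand, was in 1, that of Rpl22l1 (1.82%), against 3.15%. The NRF1 motif GCGCATGC was in 2 (3.64%), against 3.53%, and the E-box CACGTG in 3 (5.45%), against 7.72%. The Iroquois motif ACANNTGT, a sequence that proteins of the family of Irx5 can bind, was in 2 (3.64%), against 6.54%. A match is a description of letters only.

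The sequence around the starts was rich in CpG. The median number of CpG dinucleotides per window was 21 in the members and 13 in all single-start coding genes, at a median GC content of 57.0% and 55.7%. The middle 50% of members held 16 to 26 CpG, where that of all genes reached from 3 to 24. The spread of the members was thus narrower at the low end.

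Nearly all members had a listed peak at a gene end, that is, within 1000 bp of either annotated end. It was found at 83 of 83 members in Irx5KO, a share of 100% (95.6 to 100), and at 82 of 83 in WT, 98.8% (93.5 to 99.8). All intervals are 95% Wilson intervals and cover counting error only. The background over all protein-coding genes was 81.3% in Irx5KO and 79.2% in WT. Both lists had one at 82 members, against 75.2% of all genes. The only member with a gene-end peak in 1 list was Rpl19, in Irx5KO, where 6.07% of all genes were so placed. No member had one in WT only, against 3.99% of all genes, and none had one in neither list, against 14.7%.

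Rpl19 encodes a protein of the large subunit. Its annotated span (chr11:98022003-98030493) begins well before the starts in the promoter table, 98026710 and 98026924. Both lists had a peak over them. It spanned chr11:98026381-98027320 at percentile 41.8 in Irx5KO, against chr11:98026551-98027000 at percentile 14.3 in WT. The gene-end peaks of Irx5KO lay at the outer ends, 1 of 860 bp at percentile 14.2 and 1 of 210 bp at percentile 56.5. The promoter of Rpl19 was therefore marked in both genotypes, and the gene-end count differs because of those outer peaks.

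**Figure D1:**
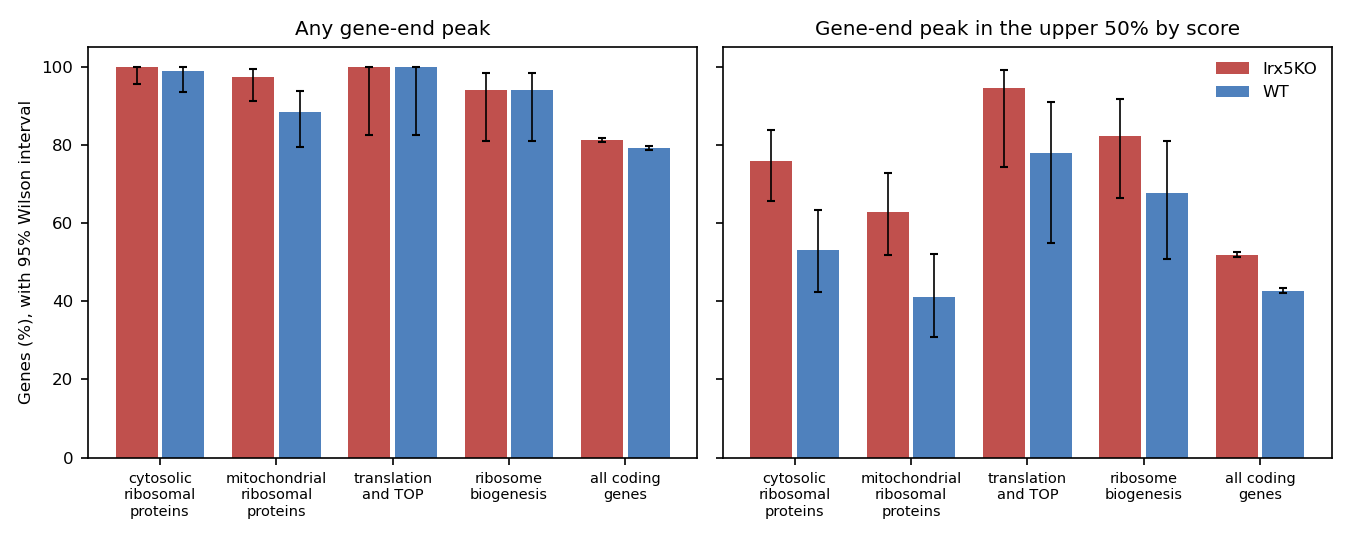
Share of genes with a gene-end peak (left) and with one in the upper 50% of its list by score (right), in percent with 95% Wilson intervals, for 5 gene groups in Irx5KO and WT. Cytosolic ribosomal protein genes reach 100% in Irx5KO and 98.8% in WT on the left, where all coding genes reach 81.3% in Irx5KO and 79.2% in WT.

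At the starts themselves the cover was nearly complete. All 63 members with an annotated start had a peak within 1000 bp of it in both lists, against 78.4% of 17492 coding genes in Irx5KO and 76.3% in WT. The start base lay under a peak in 60 members in Irx5KO, 95.2% (86.9 to 98.4), and in 57 in WT, 90.5% (80.7 to 95.6). Over all coding genes this share was 65.6% in Irx5KO and 61.5% in WT. Among the 57 recognised ribosomal proteins with a start, the counts were 57 in Irx5KO and 54 in WT.

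The start bases of 3 members lay under a peak in Irx5KO only (4.76%), against 7.23% of all coding genes, and none did so in WT only, against 3.09%. They were Rpl4, Rpl6 and Rps26, whose promoter sequences are given above. At Rps26, of the small subunit, the Irx5KO peak reached from 444 bp before to 555 bp after the start at percentile 52.7, and the WT peak ended 235 bp before it, 240 bp wide at percentile 32.3. At Rpl4, of the large subunit, the Irx5KO peak spanned 1060 bp over the start at percentile 34.8, and the WT peak of 350 bp ended 267 bp before it at percentile 22.0. At Rpl6, also of the large subunit, the Irx5KO peak of 580 bp lay over the start at percentile 26.3, and the nearest WT peak, 220 bp wide at percentile 43.2, began 960 bp after it. None of the 3 Irx5KO peaks over a start had a percentile above 52.7, so these are peaks of middle or low score.

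The start bases of 3 other members were covered in neither list. They were Rpl37rt, Rps23rg1 and Rps27rt, retrocopies outside the recognised ribosomal proteins. At Rpl37rt a peak began 788 bp after the start in Irx5KO (310 bp wide) and 768 bp after it in WT (300 bp wide), and WT had 1 more of 230 bp that ended 463 bp before the start. At Rps23rg1 the nearest peak ended 898 bp before the start in Irx5KO and 968 bp before it in WT. At Rps27rt peaks of 220 bp in Irx5KO and 230 bp in WT lay beyond the end of the gene, and WT had 1 more of 290 bp within it, which began 29 bp after the start.

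**Figure D2:**
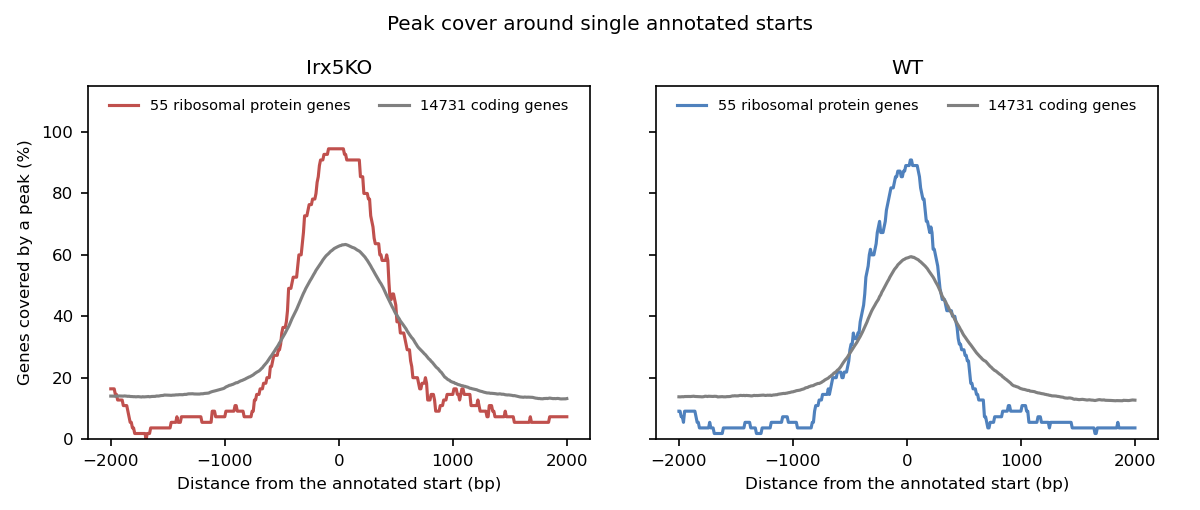
Share of genes covered by a peak at each distance from a single annotated start, in percent, for 55 ribosomal protein genes (coloured) and 14731 coding genes (grey), with Irx5KO left and WT right. At the start 94.5% of the members are covered in Irx5KO and 89.1% in WT, and at 1000 bp before it 7.27% in Irx5KO and 5.45% in WT, below the grey lines.

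Peak cover was concentrated at the start. At the start base 52 of the 55 single-start members (94.5%) were covered in Irx5KO and 49 (89.1%) in WT, against 62.8% in Irx5KO and 59.0% in WT of 14731 single-start coding genes. At 250 bp after the start, 44 of the 55 members were covered in Irx5KO and 33 in WT, against 58.2% of the coding genes in Irx5KO and 51.3% in WT. At 250 bp before it, 42 members were covered in Irx5KO (76.4%) and 38 in WT (69.1%), against 51.7% of the coding genes in Irx5KO and 45.5% in WT. At 1000 bp before the start the order turned: 4 members were covered in Irx5KO (7.27%) and 3 in WT (5.45%), against 16.7% of the coding genes in Irx5KO and 15.4% in WT. At 1000 bp after it the members' shares were 14.5% in Irx5KO and 9.09% in WT, and those of the coding genes 18.5% in Irx5KO and 16.4% in WT.

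The peak summit lay close before the start. Among single-start members with the start covered, the median summit was 38 bp before the start in Irx5KO (n = 52) and 39 bp before it in WT (n = 49). It lay within 250 bp of the start in 46 of these in Irx5KO (88.5%) and 44 in WT (89.8%), against 79.9% in Irx5KO and 79.6% in WT of the coding genes so covered. The median summit over those coding genes was 36 bp before the start in Irx5KO and 34 bp before it in WT.

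In 49 single-start members the start was covered in both lists, and there the Irx5KO peak reached farther downstream more often than not. Its end lay farther downstream in Irx5KO in 35 members, less far in 11 and equally far in 3, with a median reach of 439 bp in Irx5KO and 299 bp in WT. Upstream, 31 reached farther in Irx5KO, 14 less far and 4 equally far, with medians of 403 bp in Irx5KO and 360 bp in WT. A like lean was present over 8200 coding genes, where 63.3% reached farther downstream in Irx5KO and 62.0% farther upstream. The members' shares were 71.4% downstream and 63.3% upstream, and the upstream one was near that of all genes.

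By score, the members stood in the middle of both lists. The best-ranked gene-end peak had a median percentile of 59.5 in Irx5KO (n = 83) and 51.5 in WT (n = 82), against 61.9 in Irx5KO and 53.0 in WT over all coding genes with such a peak. The middle 50% of members lay at 53.2 to 76.0 in Irx5KO, against 38.8 to 64.9 in WT. Over all coding genes it lay at 38.8 to 80.8 in Irx5KO, against 33.3 to 73.2 in WT. The members' medians were near those of all genes, and their middle 50% was narrower in both lists.

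In the upper 50% of its list by score, 63 members had a gene-end peak in Irx5KO, 75.9% (65.7 to 83.8), and 44 in WT, 53.0% (42.4 to 63.4). Over all coding genes the share was 51.9% in Irx5KO and 42.7% in WT. A gene without a gene-end peak counts as not passing in these shares, and such genes were rarer among the members. Among genes with a gene-end peak, 44 of 82 members and 9351 of 17333 coding genes passed in WT, which are near-equal shares. The WT contrast with all coding genes therefore restates the share with any gene-end peak. In Irx5KO, 63 of 83 members and 11357 of 17789 coding genes with a gene-end peak passed, so there only part of the contrast does so. Of the members, 41 passed in both lists, and 17 passed in neither. Those that passed in Irx5KO alone numbered 22, and those in WT alone 3, namely Rpl4, Rpl9 and Rpl13. Over all coding genes 40.1% passed in both, 11.8% in Irx5KO only and 2.63% in WT only. In the highest decile there were 9 members in Irx5KO (10.8%) and 3 in WT (3.61%), against 10.8% of all coding genes in Irx5KO and 7.09% in WT.

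Where both lists had a gene-end peak, its percentile was higher in Irx5KO in 66 of 82 members and lower in 16. This is 80.5%, against 73.4% of 16460 coding genes, so a lean in the same direction was present over all genes. The median difference, Irx5KO minus WT, was 7.52 percentile points in the members and 7.13 in all genes. In 26 members the 2 percentiles were within 5 points of each other, 14 were over 20 points higher in Irx5KO, and none was over 20 points lower. Over all coding genes with a peak in both lists these shares were 29.1%, 13.6% and 2.17%.

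**Figure D3:**
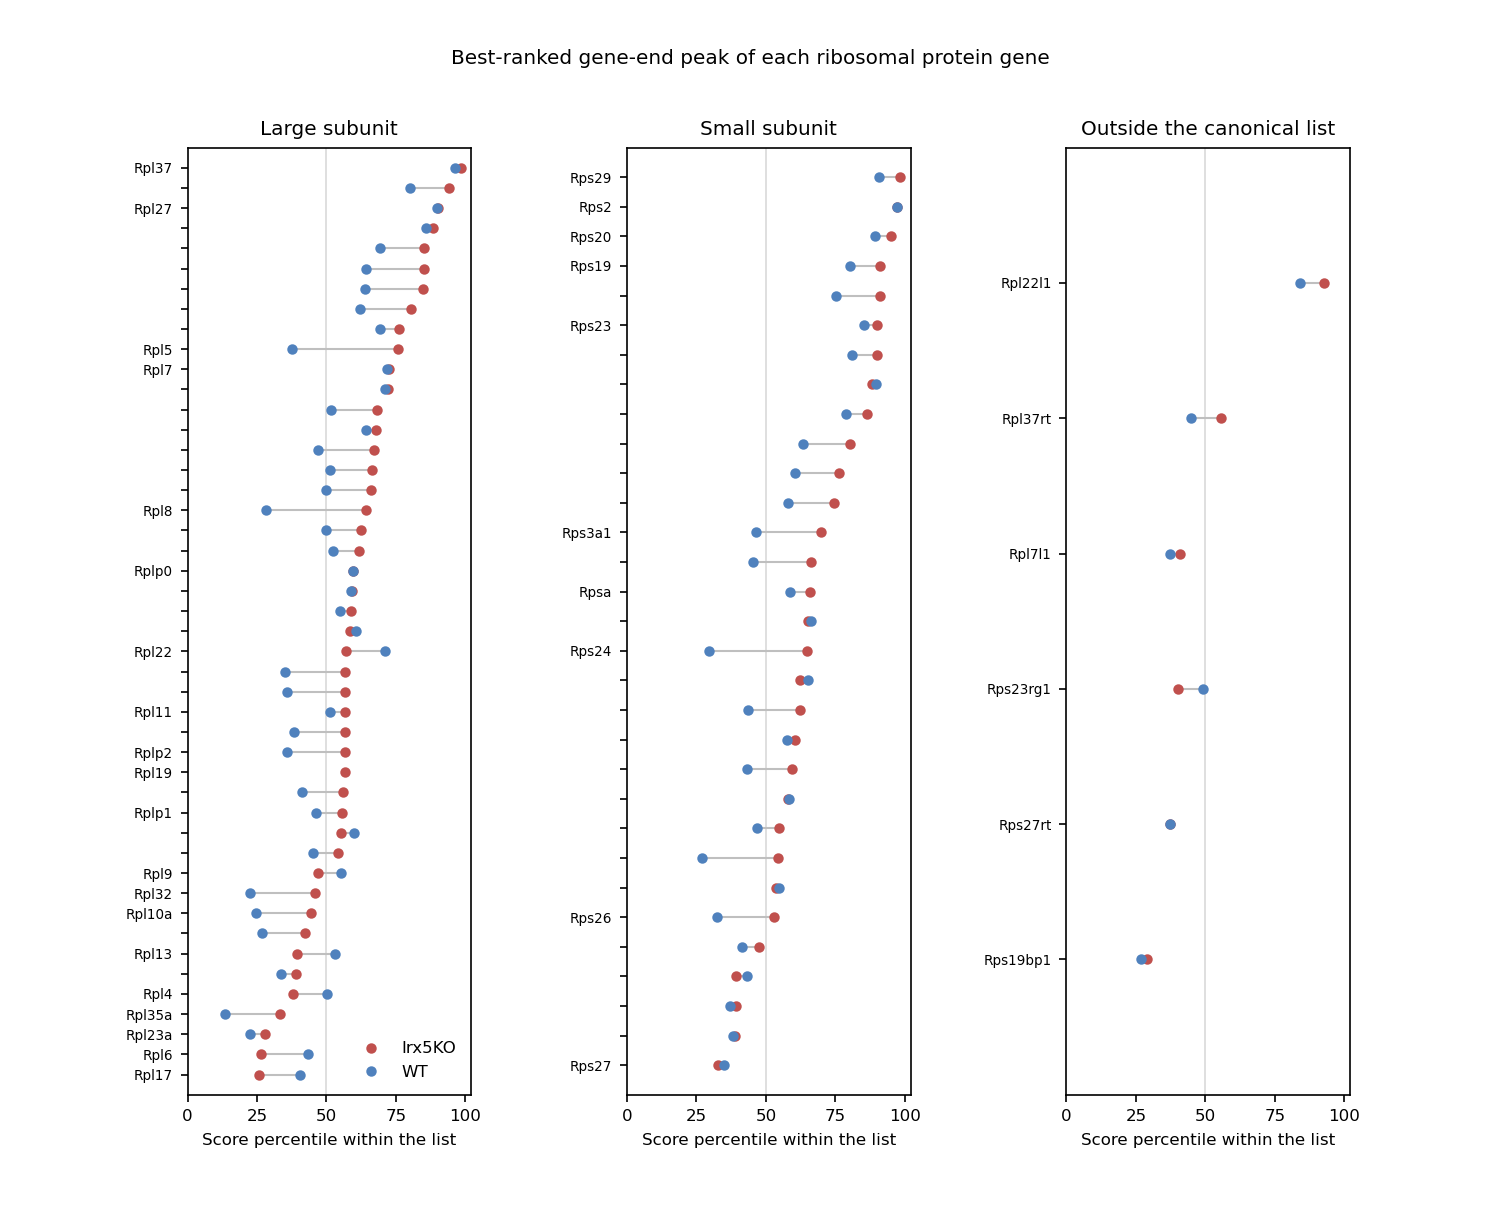
Score percentile within its list of the best-ranked gene-end peak of each of the 83 members, in Irx5KO (red) and WT (blue), joined by a line, with 100 the highest score and the members described in the text labelled. Rpl37, Rps29 and Rps2 stand above 90 in both lists, and Rpl19 has no WT point.

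Among proteins of the small subunit the median percentile was 65.0 in Irx5KO and 58.1 in WT (n = 31), and 10 of them in Irx5KO and 7 in WT had a peak among the 100000 highest-scored of the list. For the large subunit the medians were 58.6 in Irx5KO (n = 46) and 51.4 in WT (n = 45), and the counts among the 100000 highest were 8 in Irx5KO and 4 in WT. These highest peaks lay at 22.9% of all members in Irx5KO and 14.5% in WT, near the shares of all coding genes, 21.8% in Irx5KO and 14.2% in WT.

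The highest-ranked small-subunit genes in Irx5KO were Rps29, Rps2 and Rps20. Rps29 (chr12:69157722-69159186) had a peak of 1410 bp at percentile 98.2 in Irx5KO and of 1300 bp at 90.8 in WT. Rps20 (chr4:3831584-3835655) had a peak of 1340 bp at 94.9 in Irx5KO and of 1040 bp at 89.2 in WT. Rps19 had one of 1440 bp at 91.0 in Irx5KO and of 1520 bp at 80.4 in WT. Rps19 and Rps20, the skin-darkening genes in mouse, thus both stood at percentile 80.4 or above in each list.

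The peak that ranks Rps2 so high lay inside the gene and not at its start. It spanned chr17:24720951-24721300 in Irx5KO (350 bp, percentile 97.3), against chr17:24720951-24721310 in WT (360 bp, percentile 97.2), and it began 888 bp after the annotated start in both lists. Over the start, Irx5KO had a peak of 1220 bp at percentile 80.3 and WT had 1 of 480 bp at percentile 55.1. The span of that Irx5KO peak also held another WT peak, 490 bp wide at percentile 74.0, which began 208 bp after the start. The summit of the Irx5KO peak lay 563 bp after the start and that of the second WT peak 593 bp after it. In most members the best peak was one at the start. It lay over an annotated start in 53 of 63 members in Irx5KO (84.1%) and 47 of 62 in WT (75.8%), against 62.1% of coding genes in Irx5KO and 57.8% in WT.

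The large-subunit gene with the highest rank was Rpl37 (chr15:5116613-5119140), with a peak of 1370 bp at percentile 98.4 in Irx5KO and of 1070 bp at 96.3 in WT, over its start in both. The fourth place in WT was held by Rpl27, whose best peak lay beyond its 3′ end, 610 bp wide at 90.2 in Irx5KO and 510 bp wide at 89.8 in WT. At the start of Rpl27 the peaks had percentiles of 74.4 in Irx5KO and 33.9 in WT.

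At the low end stood Rpl17, Rpl6, Rpl23a and Rps19bp1 in Irx5KO, and Rpl35a, Rpl23a, Rpl32 and Rpl10a in WT. Rpl17 had a best peak of 380 bp at percentile 25.7 in Irx5KO and of 200 bp, the smallest width in the lists, at 40.5 in WT. Farther inside Rpl17, outside the windows, Irx5KO had a peak of 1050 bp at percentile 50.4, and WT had 1 of 470 bp at 26.7 and 1 of 520 bp at 25.9. The lower percentile of Rpl17 in Irx5KO thus depends on the windows. Rpl23a was low in both, at 28.0 in Irx5KO and 22.4 in WT, with widths of 480 bp in Irx5KO and 460 bp in WT. Rpl35a had 730 bp at 33.3 in Irx5KO and 670 bp at 13.7 in WT, the lowest percentile of all members. All of these members had a listed gene-end peak in both lists.

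Among the members with the largest difference in percentile were Rpl5, Rpl8, Rps24 and Rps3a1, all higher in Irx5KO. Rpl5, which with Rpl11 and 5S rRNA restrains Mdm2 and so stabilises p53, had its best peak at 75.7 in Irx5KO and 37.7 in WT, with widths of 1100 bp in Irx5KO and 890 bp in WT. In Irx5KO the summit lay 22 bp before the start, and in WT 458 bp after it. Rpl8 had percentiles of 64.3 in Irx5KO and 28.4 in WT. Rps24 stood at 64.7 in Irx5KO and 29.4 in WT. Rps3a1 stood at 69.8 in Irx5KO and 46.4 in WT. Rpl11, the partner of Rpl5, chosen after its values were seen, had 56.7 in Irx5KO and 51.4 in WT.

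In the other direction the largest differences were at Rpl6, Rpl17, Rpl22, Rpl13 and Rpl4. Rpl6 had percentiles of 26.3 in Irx5KO and 43.2 in WT, for peaks at different places as described above. Rpl22, of the large subunit, had 57.1 in Irx5KO and 71.2 in WT for a narrow peak before its outer start. Over its inner start the peaks stood at 80.4 in Irx5KO and 68.2 in WT. Rpl13 had 39.4 in Irx5KO for a peak over its start, against 53.2 in WT for a peak that began after it. Rpl4 had 38.01 in Irx5KO and 50.1 in WT, for peaks beyond its 3′ end. At Rpl17, which has no start in the table, the best peaks of both lists lay at different places in the gene. In none of these 5 members were the percentiles those of a peak over an annotated start in both lists.

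**Figure D4:**
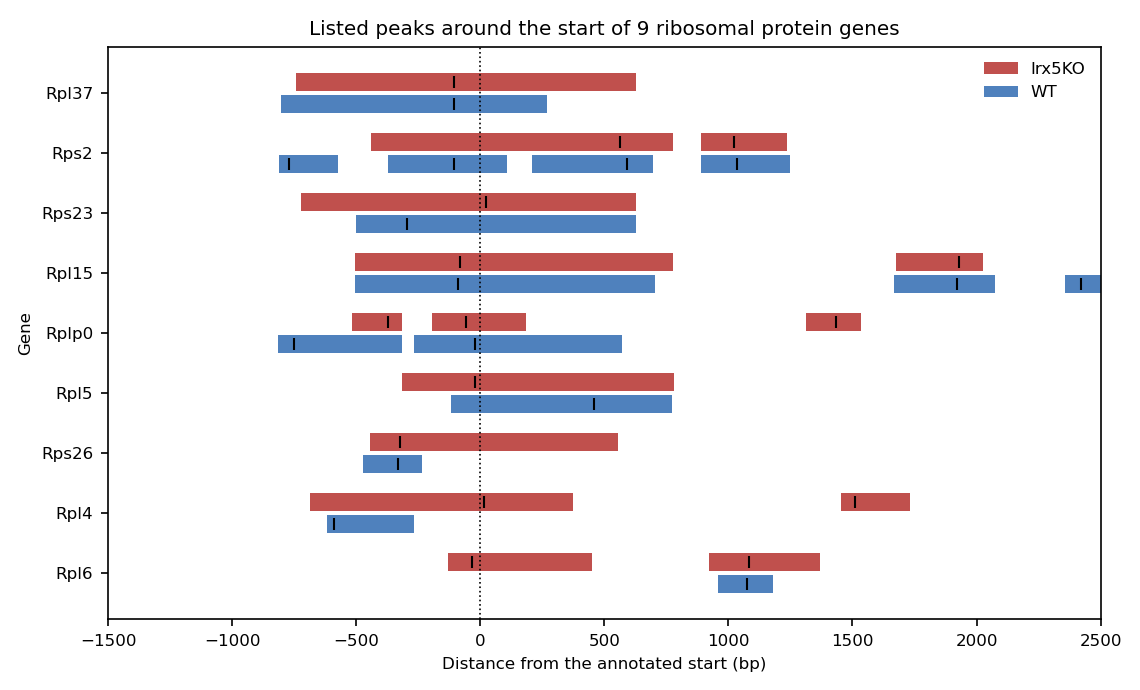
Listed peaks around the single annotated start of 9 members, by distance from the start in bp along the gene's strand, with Irx5KO (red) above WT (blue) and summits as black ticks. The WT peaks of Rps26, Rpl4 and Rpl6 leave the start uncovered, and the Rps2 peak that ranks highest begins 888 bp after the start in both lists.

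The P-stalk, which recruits translation factors with GTPase activity to the ribosome, is formed by the products of Rplp0, Rplp1 and Rplp2. Their best gene-end peaks had percentiles of 59.5, 55.7 and 56.5 in Irx5KO, against 59.4, 46.2 and 35.9 in WT. All 3 peaks were narrower in Irx5KO, at 380, 720 and 750 bp, against 500, 740 and 760 bp in WT. For Rplp0 the best peak was not the same one: in Irx5KO it lay over the start, and in WT it ended 317 bp before the start, with another WT peak of 840 bp over the start at percentile 48.3. Rpsa, a small-subunit protein also known as the laminin receptor, had 940 bp at 65.7 in Irx5KO and 950 bp at 58.6 in WT.

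Peaks at most members were wider in Irx5KO. The best-ranked gene-end peak had a median width of 860 bp in Irx5KO and 670 bp in WT, against 890 bp in Irx5KO and 730 bp in WT over all coding genes. It was wider in Irx5KO in 60 of 82 members, narrower in 20 and equal in 2. This is 73.2%, against 64.3% of 16460 coding genes, and the median difference was 145 bp in the members and 90 bp in all genes. These differences have no replicate check.

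The largest width contrasts were at genes whose best-ranked WT peak was short. Rpl32 had 1450 bp in Irx5KO and 230 bp in WT, and Rps26 had 1000 bp in Irx5KO and 240 bp in WT. Rpl10a had 950 bp in Irx5KO and 310 bp in WT, but WT had 2 more peaks beside it, of 440 and 570 bp, that overlap the span of the Irx5KO peak. Among all members, peaks were widest at Rpl7, with 2470 bp in Irx5KO and 2790 bp in WT. Windows of Rpl7 meet those of Rdh10, so its peak may not belong to the ribosomal protein gene alone. Such contact with another coding gene was present for 42 of the 83 members, and the best peak reached a neighbour's window in 20 members in each list. No share of all coding genes is given here for these counts, so they are not shown to be particular to the members.

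**Figure D5:**
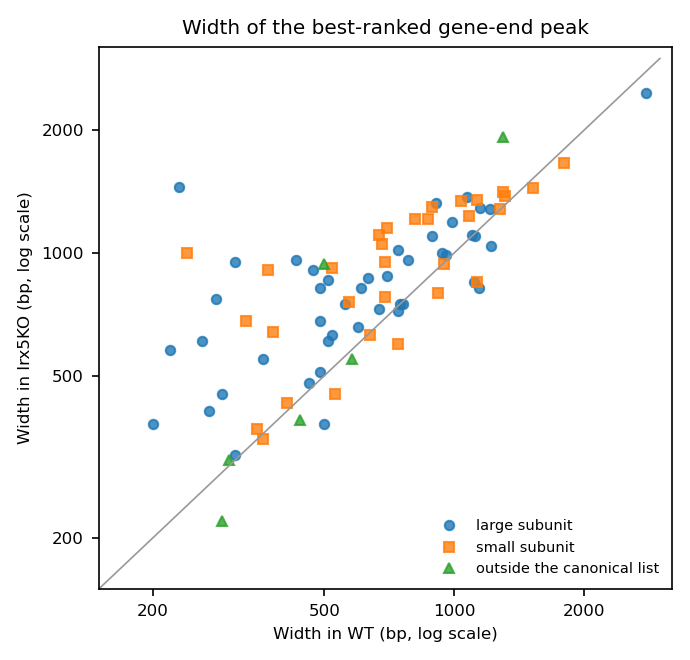
Width in bp of the best-ranked gene-end peak in Irx5KO (vertical) and WT (horizontal), both on log scales, for the 82 members with a peak in both lists, with the line of equal width. Of these, 60 lie above the line, among them Rpl32 with 1450 bp in Irx5KO and 230 bp in WT, and 20 below it.

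The number of gene-end peaks per gene averaged 1.67 in Irx5KO and 1.53 in WT over the members, against 1.36 in Irx5KO and 1.33 in WT over all coding genes. A gene without a gene-end peak counts as 0 in these averages, and such genes were rarer among the members. The averages therefore do not show more peaks per gene among the genes that have a peak. In Irx5KO 42 members had 1 gene-end peak, 30 had 2, 7 had 3 and 4 had 4, in sum 139. In WT 49 had 1, 21 had 2, 12 had 3 and 1 had none, in sum 127. The best-ranked peak overlapped a peak of the other list in 80 of 83 members in Irx5KO and 77 of 82 in WT, against 89.3% of coding genes with a peak in Irx5KO and 91.3% in WT. The best peaks of both lists overlapped each other in 74 of 82 members, against 88.7% of coding genes.

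The 6 members outside the recognised ribosomal proteins had a median percentile of 40.5 in Irx5KO and 41.0 in WT. Rpl22l1, a paralogue of Rpl22, stood apart with a peak of 1920 bp at 92.7 in Irx5KO and of 1300 bp at 84.0 in WT. Rpl7l1 had 40.9 in Irx5KO and 37.1 in WT, and Rps19bp1 had 29.0 in Irx5KO and 26.7 in WT, each with the start covered in both lists. Rps27rt had 37.1 in both, for different peaks: the best one lay beyond the gene in Irx5KO and within it in WT. Rpl37rt had 55.5 in Irx5KO and 45.0 in WT, and Rps23rg1 had 40.2 in Irx5KO and 49.0 in WT.

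Fau and Rack1, ribosomal proteins whose symbols fall outside the rule, lay within the members' range. Fau, made as a fusion with a ubiquitin-like protein, had a best gene-end peak at percentile 59.5 in Irx5KO and 38.6 in WT. Rack1, a scaffold on the small subunit, had 57.4 in Irx5KO and 42.9 in WT. Both had a gene-end peak in both lists.

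Other genes of the translation machinery were described in the same way. Of 78 mitochondrial ribosomal protein genes, 76 had a gene-end peak in Irx5KO, 97.4% (91.1 to 99.3), and 69 in WT, 88.5% (79.5 to 93.8), against 81.3% of all coding genes in Irx5KO and 79.2% in WT. Of these 78 genes, 7 had one in Irx5KO only and none in WT only, against 6.07% of all coding genes in Irx5KO only and 3.99% in WT only. Their median percentile was 60.1 in Irx5KO and 45.2 in WT. The 18 coding genes of translation factors and other TOP mRNAs, such as Eef1a1 and Pabpc1, all had a gene-end peak in both lists, against 75.2% of all coding genes. Their medians were 78.8 in Irx5KO and 71.0 in WT. All 18 were wider and of higher percentile in Irx5KO. Over all coding genes with a peak in both lists, 64.3% were wider and 73.4% of higher percentile in Irx5KO. Of 34 ribosome biogenesis genes, 32 had a gene-end peak in each list, with medians of 66.8 in Irx5KO and 54.97 in WT. In each of these groups more than 73.4% of the genes with a peak in both lists had the higher percentile in Irx5KO: 63 of 69, 18 of 18 and 28 of 32. The differences between these groups and the cytosolic ribosomal proteins were not tested.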

How the data were processed

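Open chromatin was measured by ATAC-seq, which uses the Tn5 transposase, in 4 HFSC samples. Per the submitters' processing notes, mm10 was the build, and Genrich 0.6, Bowtie2, cutadapt 2.9, ChIPseeker 1.24.0, deepTools 3.4.2 and FastQC were used. The sources used here do not give their settings, any Tn5 shift or what was done with multiply mapped reads. Both samples of 1 genotype share a deposited list, per the labels. The deposited score, the authors' own value per peak with no stated scale, served for ranks within a list, and the deposited summit position for distances. Read depth is unknown.

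Gene spans came from RefSeq GRCm38.p6 and starts from its promoter table. A peak counted on 1 bp of overlap, and the highest-scored one stood for a gene. The rule for named genes took members with a peak in 1 list, the 4 highest and lowest in each list, the 5 largest percentile differences each way, the 3 widest in each list, the P-stalk, Rpsa, Fau and Rack1. Some items that the rule names are not reported here. Members, lists and motifs were chosen with earlier results of these data known. Rpl41 was added to the recognised proteins after the data were seen. Tested on simulated data, all 200 planted genes of 21887 were recovered, and counts equalled those of bedtools 2.31.1. Alternatives changed windows, score thresholds, overlap, width, members and the peak standing for a gene. Python 3.11.15, numpy 2.4.6, pandas 2.3.3, scipy 1.17.1 and matplotlib 3.10.9 were used.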

Additional observations from a re-analysis of the deposited data

How the results depend on the processing

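No paired analysis was possible because each list pools both replicates of a genotype and no test was run, and for the same reason no replicate could be left out. Of 130 values under alternatives, 94 stayed within 1.5 times the count, or within the 95% interval of the share or median, and 36 moved. Among the upper 50% of peaks by score, gene-end shares were 75.9% in Irx5KO and 53.0% in WT, start shares 69.8% in Irx5KO and 46.0% in WT, median percentiles 66.2 in Irx5KO and 64.2 in WT and the WT median width 825 bp, with 41 members in both, 17 in neither, 22 in Irx5KO alone and 3 in WT alone. Among the 100000 highest-scored peaks, gene-end shares were 22.9% in Irx5KO and 14.5% in WT, start shares 19.0% in Irx5KO and 9.52% in WT, median percentiles 89.9 in Irx5KO and 87.4 in WT and median widths 1300.0 bp in Irx5KO and 1170.0 bp in WT, with 7 members in Irx5KO only, 12 in both and 64 in neither. These thresholds remove low-ranked peaks by construction. Over all coding genes, 21.8% in Irx5KO and 14.2% in WT had their best gene-end peak among the 100000 highest-scored. For the classes of 1 list only, both or neither at that threshold, no share of all coding genes is given here. With windows of 500 bp the Irx5KO gene-end share was 95.2%, with 2 members in Irx5KO alone, 2 in WT alone and 2 in neither. With windows of 3000 bp the WT share was 100% and 0 members were in Irx5KO only. With an overlap of at least 100 bp, with peak midpoints, or with peaks up to 2000 bp wide, 2 members were in Irx5KO only. Counting only peaks over the start base, the WT start share was 90.5%. With the peak nearest to the gene end, the WT median percentile was 46.0. Among the 41 members with windows of their own, chosen after seeing the data, the WT share was 100%, with 41 in both and 0 in Irx5KO only. The recognised proteins alone, the widest peak and leaving out Rps2 moved no value. Under the other windows, overlaps, midpoints and widths, no share of all coding genes is given here, so these member counts have no background.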

Other observations

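Pseudogenes of ribosomal proteins, most of them copies without the parent's promoter, also carried peaks. Of 310 annotated ones with -ps in the symbol, 253 in Irx5KO, 81.6% (76.9 to 85.5), and 255 in WT, 82.3% (77.6 to 86.1), had a peak over the copied span itself. Over 9634 other annotated pseudogenes the shares were 52.3% (51.4 to 53.3) in Irx5KO and 54.7% (53.7 to 55.7) in WT. Within 1000 bp of either end, 88.7% of the ribosomal protein pseudogenes had a peak in Irx5KO and 88.1% in WT, against 68.2% of the others in Irx5KO and 70.0% in WT. The median length of these pseudogenes was 528 bp, against 925 bp for the others. Their best-ranked peaks had median percentiles of 66.3 in Irx5KO and 67.5 in WT, with median widths of 560 bp in Irx5KO and 580 bp in WT. Those of the other pseudogenes had median percentiles of 65.3 in Irx5KO and 67.9 in WT, near the same, with median widths of 670 bp in Irx5KO and 690 bp in WT. How the authors placed reads that match several copies is not given in the sources used here.

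The 6 coding genes left out for a symbol ending in l were mixed. Rps27l, a paralogue of Rps27 that p53 induces in human cells, had a best gene-end peak at percentile 97.1 in Irx5KO and 97.3 in WT. That peak lay beyond the gene's outer end, and the peaks at the annotated starts stood at 60.4 in Irx5KO and 40.003 in WT. At Rps27, chosen after its values were seen, the peak over the start stood at 32.7 in Irx5KO and 34.8 in WT. Rpl36al had 84.7 in Irx5KO and 60.5 in WT. Rpl3l, a form of muscle, had 69.4 in Irx5KO and 55.5 in WT, with the start covered in neither list. Rpl10l, a form of the testis, had no gene-end peak in either list. Rpl32l had 56.7 in Irx5KO and 59.8 in WT, and Rpl39l had 57.1 in Irx5KO and 63.4 in WT. The best peaks of Rpl32l lay within the gene and those of Rpl39l beyond its outer end. Neither gene had its start covered in either list.

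Members with the ETS motif had a median percentile at the start of 62.1 in Irx5KO and 51.2 in WT (n = 21), and the members without it had 56.2 in Irx5KO and 45.1 in WT. For the pyrimidine run near the start these medians were 60.4 in Irx5KO and 50.8 in WT with it (n = 29), and 57.2 in Irx5KO and 45.8 in WT without it. For the run at the start base itself they were 56.5 in Irx5KO and 42.4 in WT with it (n = 12), and 59.0 in Irx5KO and 49.9 in WT without it. For the YY1 motif they were 44.2 in Irx5KO and 39.2 in WT with it (n = 4), and 59.0 in Irx5KO and 49.7 in WT without it. The medians with a motif were thus higher for some and lower for others. These are descriptions over genes of the same lists.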
